A study of Mus musculus with 19 samples.

Results

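The genes described here are 8 matrix metalloproteinases (Mmp2, Mmp3, Mmp9, Mmp10, Mmp11, Mmp12, Mmp13 and Mmp14) and 2 of their tissue inhibitors (Timp1 and Timp3), 10 of the 55487 genes of the count table, taken from the count table by gene name. RNA was sequenced from 19 mouse oral squamous cell carcinomas. All 5 groups were C57BL/6J mice given the carcinogen 4-nitroquinoline 1-oxide (4NQO) at 100 µg/ml in their drinking water for 10 weeks, starting at 6 weeks of age, and then plain water. The groups were regorafenib at 5 mg/kg/day (4 libraries), anti-PD1 (3 libraries), anti-PD1 with regorafenib, called the combination (5 libraries), an anti-CD40 agonist (3 libraries) and vehicle (4 libraries). Regorafenib is a small molecule that blocks a range of kinases of blood vessels, stroma and tumour cells. PD1 restrains T cells, and an agonist of CD40 activates antigen-presenting cells. The labels give no dose or schedule for either antibody, no separate regorafenib dose for the combination and no age at sampling. They also do not say whether each library came from its own animal. The spread behind the p-values is therefore that between libraries and could be technical.

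Matrix metalloproteinases are zinc enzymes that cut collagens, laminins, elastin and other parts of the extracellular matrix, and that release growth factors and cytokines held there. Most are secreted as inactive proenzymes and are switched on when the propeptide is removed by plasmin, furin or another metalloproteinase. Tissue inhibitors of metalloproteinases (TIMPs) block the active site. In squamous carcinomas the enzymes come from both the tumour cells and the stroma, and they are known for their part in breaching the basement membrane. RNA levels do not measure enzyme activity.

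Coordinates are those of whole genes on GRCm38 (GENCODE M21). Levels are given in CPM, counts set to a common library size after TMM scaling, and changes are log2 estimates of edgeR's quasi-likelihood test ± SE. A gene was called when its Benjamini-Hochberg adjusted p over all 16909 tested genes was under 0.05. Library totals ran from 16776177 to 24969492 counts. Keratinocyte markers were abundant in every library, as the tissue label implies, but the 9 skeletal muscle markers also summed to between 20974 and 43085 CPM in each library. The salivary gland markers ranged between 3.83 and 16030 CPM and the stomach markers between 0.397 and 1087 CPM in sum. All 10 genes passed the filter on low counts. In bulk RNA, fewer cells of a type and less RNA per cell cannot be told apart.

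Of the secreted enzymes, Mmp3, Mmp10 and Mmp13 lie with Mmp12 on chromosome 9. Their promoters are shown because Mmp13 varied together with Mmp3 and with Mmp10 from library to library. Timp3 is shown beside them as the gene that passed the test. Each line gives 120 bases that end just before the gene's start in GENCODE or in RefSeq, whichever comes first, read 5′ to 3′ on GRCm38.p6 from RefSeq. Capitals mark matches to the AP-1 element (TGANTCA, searched on both strands) and to the TATA box (TATAAA, searched on the gene's own strand).
Mmp3 (chr9:7445702-7445821, plus strand): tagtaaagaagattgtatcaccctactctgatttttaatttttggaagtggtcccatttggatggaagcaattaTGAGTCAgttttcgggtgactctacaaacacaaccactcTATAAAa
Mmp10 (chr9:7502222-7502341, plus strand): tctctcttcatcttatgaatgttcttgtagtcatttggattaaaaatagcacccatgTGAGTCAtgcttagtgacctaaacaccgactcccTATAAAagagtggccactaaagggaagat
Mmp13 (chr9:7272394-7272513, plus strand): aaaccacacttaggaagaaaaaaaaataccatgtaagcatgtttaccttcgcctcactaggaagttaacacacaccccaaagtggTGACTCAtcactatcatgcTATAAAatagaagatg
Timp3 (chr10:86300252-86300371, plus strand): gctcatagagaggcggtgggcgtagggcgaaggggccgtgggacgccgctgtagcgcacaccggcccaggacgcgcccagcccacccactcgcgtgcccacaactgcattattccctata

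A RefSeq promoter was at hand for 8 of the 10 genes, all but Mmp2 and Mmp9. Over the 250 bases before the start, the AP-1 element was matched in Mmp3 (positions -46 to -40 from the RefSeq start), Mmp10 (-63 to -57) and Mmp13 (-35 to -29). The same 3 genes held TATAAA, at -7 to -2 in Mmp3, at -29 to -24 in Mmp10 and at -16 to -11 in Mmp13. Neither motif was matched in Mmp11, Mmp12, Mmp14, Timp1 or Timp3. Of 32851 promoters searched the same way, 6.75% held the AP-1 element, 7.59% held TATAAA and 0.791% held both. A match is a description of the letters and not a measured binding site.

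Set per kilobase of annotated exon, the order of the 10 genes over the 19 libraries put the broadly expressed genes far above the inducible ones. Mmp2 averaged 22.9 ± 1.86 CPM per kb (SD, n = 19), Timp3 16.7 ± 2.95 CPM per kb and Mmp14 9.81 ± 1.13 CPM per kb. Mmp3 followed at 3.53 ± 2.11 CPM per kb, Mmp11 at 1.60 ± 0.326 CPM per kb and Timp1 at 0.933 ± 0.569 CPM per kb. These middle genes comprise a stromelysin, a stromelysin-like enzyme and an inhibitor. The lowest were Mmp9 at 0.755 ± 0.418 CPM per kb, Mmp13 at 0.548 ± 0.515 CPM per kb, Mmp12 at 0.254 ± 0.120 CPM per kb and Mmp10 at 0.253 ± 0.433 CPM per kb. Set side by side within a library, Timp3 lay above Mmp14 and Mmp14 above Mmp3 in 19 of 19 libraries, and Mmp2 lay above Timp3 in 18. Mmp3 lay above Mmp11, and Mmp11 above Timp1, in 17 libraries each. The order of the lowest genes was less steady, with Timp1 above Mmp9 in 10 libraries, Mmp9 above Mmp13 in 14, Mmp13 above Mmp12 in 12 and Mmp12 above Mmp10 in 14.

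**Figure D1:**
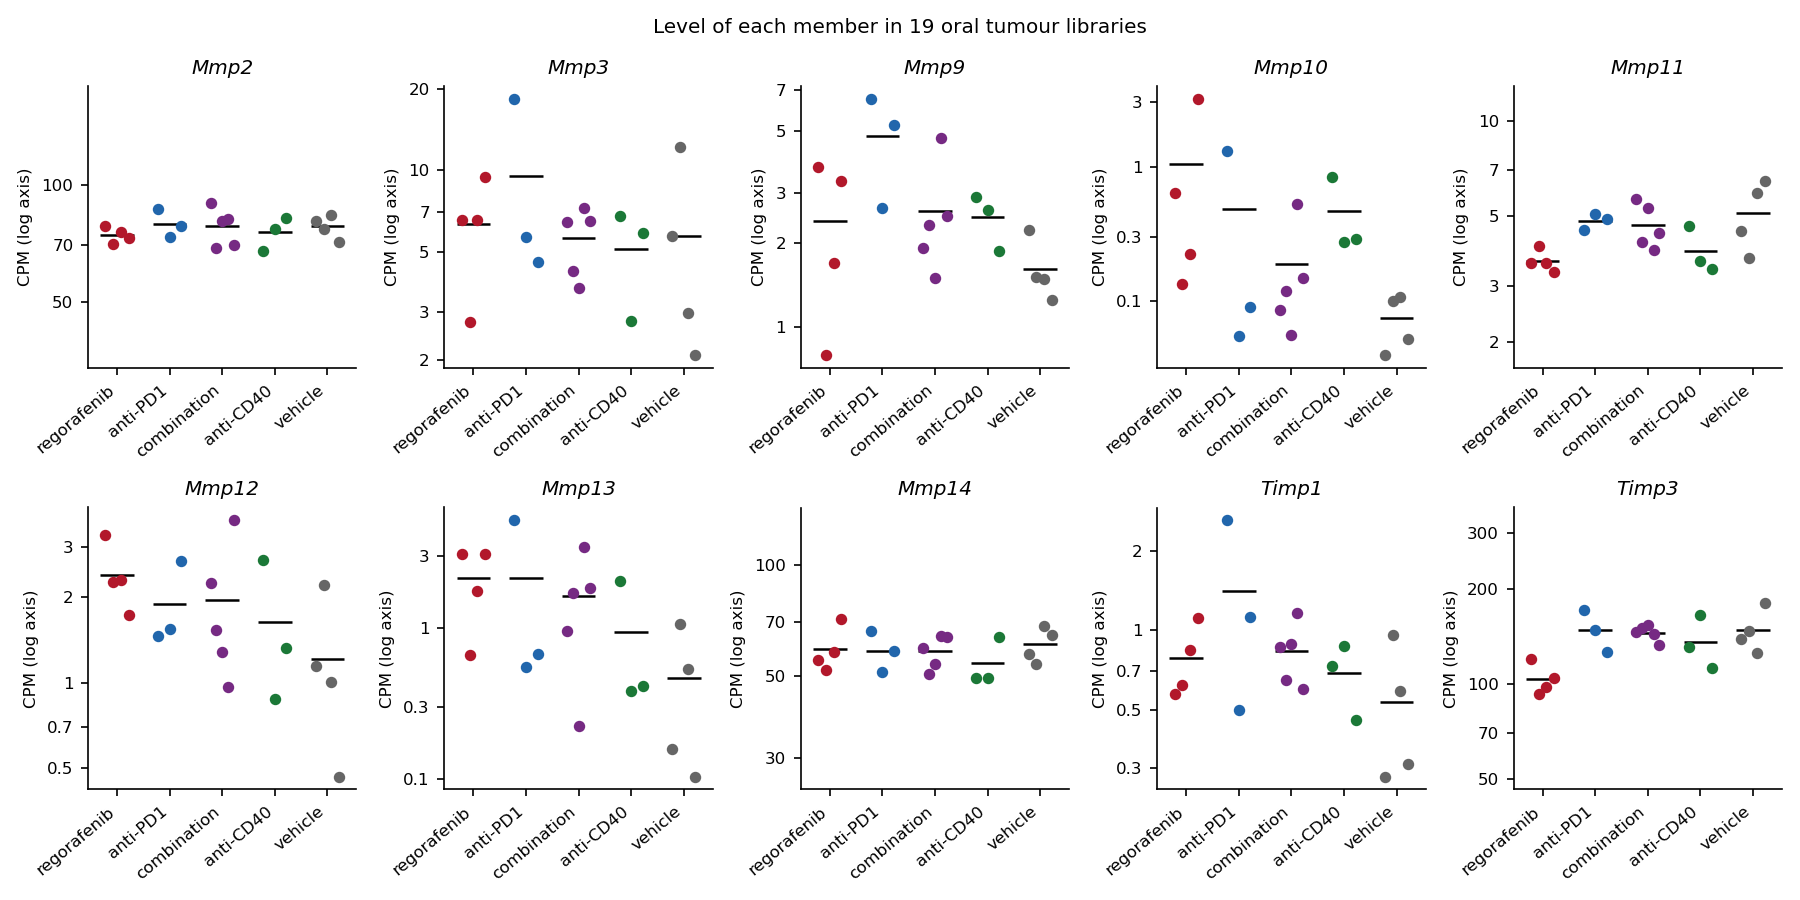
CPM (log axis, a different range for each gene) of the 10 genes in each library of the 5 groups; points are libraries in order of replicate number and bars are group means. Timp3 lies lower in all 4 regorafenib libraries (92.8 to 120 CPM) than in any vehicle library (125.2 to 180.4 CPM), and Mmp10 and Mmp13 spread most widely. Of all tested genes, 16.5% did not overlap between regorafenib and vehicle.

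The genes also differed in how steady they were. The highest library held 1.34 times the CPM of the lowest for Mmp2 and 1.44 times for Mmp14. For Mmp11 and Timp3 the ratio was 1.94. It reached 8 for Mmp12, 8.17 for Mmp9, 8.85 for Mmp3 and 9.44 for Timp1, and was widest for Mmp13 (49.7) and Mmp10 (80.4). The wide ratios of the last 2 rest on small numbers, since Mmp13 had 2 to 106 counts in a library and Mmp10 had 1 to 72 counts. A single library, anti-PD1 1, had the highest level of 4 genes (Mmp3, Mmp9, Mmp13 and Timp1). The same library had the highest sums of salivary gland markers (16030 CPM), stomach markers (1087 CPM) and fibroblast markers (1217 CPM) of the 19. Nearly all of its stomach sum was Tff2, which reached 1087 CPM. The part of these markers in the levels of the 4 genes was not tested.

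The gelatinases digest type IV collagen of basement membranes and denatured collagen. Mmp2 (ENSMUSG00000031740.8, chr8:92827291-92853420), a gelatinase made mainly by fibroblasts, was nearly level in all groups. It stood at 78.4, 70.3, 75.6 and 73.2 CPM with regorafenib, against 81.0, 77.1, 83.7 and 71.5 CPM with vehicle. It stood at 86.8, 73.3 and 78.5 CPM with anti-PD1, at 90.2, 68.8, 80.6, 82.0 and 69.9 CPM in the combination, and at 67.5, 77.0 and 82.1 CPM with anti-CD40. All groups overlapped.

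Mmp9 (ENSMUSG00000017737.2, chr2:164940780-164955850), the gelatinase of neutrophils, macrophages and invading keratinocytes, had its 2 highest libraries in the anti-PD1 group. It stood at 6.51, 2.66 and 5.25 CPM with anti-PD1, against 2.22, 1.51, 1.49 and 1.25 CPM with vehicle, so these groups did not overlap. Of all tested genes, 9.23% had groups that did not overlap in that comparison. The log2 change was 1.56 ± 0.44 (edgeR unadjusted p = 0.00259, adjusted p = 0.246), which did not pass. Leaving out any library of the 19, it lay between 1.28 and 1.85. The 8 summed neutrophil markers were led by S100a8 and S100a9. Their sum ranged between 379.3 and 465.4 CPM with anti-PD1, against 7.57 and 1425 CPM with vehicle. Apart from S100a8 and S100a9, no neutrophil marker exceeded 4.81 CPM (Mpo) in any library. Ly6g and Elane were at 0 in 14 of the 19 libraries each. The part of the neutrophil markers in the Mmp9 level was not tested.

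The Mmp9 means of the other groups lay between these 2 groups. It stood at 3.73, 0.797, 1.69 and 3.32 CPM with regorafenib, at 1.91, 2.31, 1.5, 4.72 and 2.49 CPM in the combination and at 2.92, 2.62 and 1.87 CPM with anti-CD40. The combination averaged 2.58 ± 1.25 CPM (SD, n = 5), against 4.81 ± 1.97 CPM with anti-PD1 alone (SD, n = 3). That difference of -0.89 ± 0.41 (edgeR unadjusted p = 0.0427, adjusted p = 0.476) did not pass.

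The stromelysins Mmp3 and Mmp10 degrade proteoglycans, laminin and fibronectin and activate other proenzymes. Mmp3 (ENSMUSG00000043613.8, chr9:7445822-7455975) had its highest level in a single library of anti-PD1. It stood at 18.4, 5.7 and 4.58 CPM with anti-PD1, against 5.72, 12.2, 2.98 and 2.08 CPM with vehicle. It stood at 6.59, 2.75, 6.59 and 9.49 CPM with regorafenib, at 6.45, 4.26, 3.68, 7.27 and 6.53 CPM in the combination and at 6.79, 2.79 and 5.86 CPM with anti-CD40. Anti-PD1 1 held 64.8% of the Mmp3 counts of its group. All groups overlapped, and no comparison of Mmp3 reached an unadjusted p under 0.05.

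Mmp10 (ENSMUSG00000047562.3, chr9:7502352-7510240), a stromelysin of migrating keratinocytes at wound edges, was the least counted of the genes. Its counts were 11, 3, 4 and 72 with regorafenib, against 1, 2, 2 and 1 with vehicle. In CPM these were 0.631, 0.133, 0.225 and 3.19 with regorafenib, against 0.0397, 0.101, 0.107 and 0.0519 with vehicle. Every regorafenib library lay above every vehicle library, a separation that 16.5% of all tested genes had in that comparison. The change of 3.78 ± 1.19 missed the threshold (edgeR unadjusted p = 0.00563, adjusted p = 0.0661). Regorafenib 4 held 80.0% of the group's Mmp10 counts, and without it the change was 2.04 ± 1.13 (edgeR adjusted p = 0.321). The change passed without regorafenib 2 (edgeR adjusted p = 0.0438) and without anti-PD1 1 (edgeR adjusted p = 0.0392), whose removal alters the shared spread.

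Because so few reads were counted, the ratio of summed Mmp10 counts was also computed with an exact 95% interval. The interval covers counting error only and leaves out the spread between libraries. It also treats reads as independent, which PCR copies are not. For regorafenib the ratio to vehicle was 15.5 (6.86 to 43.4) with all libraries and 4.31 (1.64 to 13.3) without regorafenib 4. For anti-PD1, with 27, 1 and 2 counts, it was 6.82 (2.79 to 20), and 1.03 (0.167 to 4.82) without anti-PD1 1. For anti-CD40, with 16, 5 and 7 counts, it was 6.30 (2.56 to 18.6), and 3.92 (1.36 to 12.7) without anti-CD40 1. The 3 anti-CD40 libraries (0.835, 0.273 and 0.291 CPM) lay above all vehicle libraries. The 2 groups did not overlap for 5.87% of tested genes, and the test did not pass (unadjusted p = 0.0826 by edgeR).

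In the combination Mmp10 had few counts. Its counts were 2, 2, 1, 11 and 3, which is 0.0866, 0.118, 0.0557, 0.529 and 0.149 CPM. The ratio of summed counts to vehicle was 2.66 (exact 95% interval 1.02 to 8.15), and 1.42 (0.432 to 4.96) without combination 4. Against regorafenib alone the change was -2.45 ± 0.94 (edgeR unadjusted p = 0.0190, adjusted p = 0.101), and the 2 groups overlapped. Without regorafenib 4 that change was -0.71 (edgeR adjusted p = 0.672).

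Mmp11 (ENSMUSG00000000901.17, chr10:75923222-75936496), or stromelysin-3, is made by stromal fibroblasts next to carcinoma cells and is activated inside the cell by furin. It stood at 3.55, 4.03, 3.55 and 3.32 CPM with regorafenib, against 4.49, 3.68, 5.91 and 6.43 CPM with vehicle. Vehicle 2 lay inside the regorafenib range and the other 3 vehicle libraries lay above it. The change of -0.50 ± 0.17 did not pass (edgeR unadjusted p = 0.00753, adjusted p = 0.0769), and passed without vehicle 2 (-0.63, edgeR adjusted p = 0.0283). The combination (5.67, 4.14, 5.29, 3.90 and 4.43 CPM) stood 0.38 ± 0.16 above regorafenib alone on the log2 scale (edgeR unadjusted p = 0.0302, adjusted p = 0.133).

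Mmp11 stood at 4.52, 5.09 and 4.89 CPM with anti-PD1. With anti-CD40 it stood at 4.65, 3.6 and 3.41 CPM, a difference from vehicle of -0.40 ± 0.18 (edgeR unadjusted p = 0.0401, adjusted p = 0.819). Mmp11 overlaps Chchd10 on the opposite strand by 3367 bases. Chchd10 had 109985 counts over the libraries and Mmp11 had 1709, and since the strand setting of the counting is not given, reads of the 2 genes may not have been separated.

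Mmp12 (ENSMUSG00000049723.14, chr9:7344381-7369499), the elastase of macrophages, stood at 3.33, 2.26, 2.31 and 1.73 CPM with regorafenib, against 1.15, 2.22, 1.01 and 0.467 CPM with vehicle. Only vehicle 2 reached into the regorafenib range. The change of 0.98 ± 0.46 did not pass (edgeR unadjusted p = 0.0475, adjusted p = 0.198). The 9 macrophage markers summed to between 137.6 and 153.9 CPM with regorafenib, against 147.9 and 220.5 CPM with vehicle, and none of the 9 was at 0 in any library. Their part in the Mmp12 level was not tested. Mmp12 stood at 1.46, 1.55 and 2.69 CPM with anti-PD1, at 2.25, 1.54, 1.28, 0.963 and 3.74 CPM in the combination and at 2.72, 0.874 and 1.33 CPM with anti-CD40.

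Mmp13 (ENSMUSG00000050578.10, chr9:7272514-7283331), collagenase-3, is the main interstitial collagenase of rodents and cuts fibrillar collagen. It stood at 3.10, 0.664, 1.75 and 3.10 CPM with regorafenib, against 0.159, 1.06, 0.533 and 0.104 CPM with vehicle. The ranges overlapped between regorafenib 2 and vehicle 2. The change of 2.23 ± 0.95 did not pass (edgeR unadjusted p = 0.0326, adjusted p = 0.161). The ratio of summed counts to vehicle was 4.75 (exact 95% interval 3.31 to 6.98) with regorafenib, and 3.89 (2.64 to 5.83) without regorafenib 4. As for Mmp10, the intervals given for Mmp13 cover counting error only and leave out the spread between libraries.

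With anti-PD1, Mmp13 stood at 5.15, 0.554 and 0.673 CPM, and anti-PD1 1 held 80.9% of the group's counts. The change against vehicle was 2.22 ± 0.99 (edgeR unadjusted p = 0.0407, adjusted p = 0.505), and 0.44 without anti-PD1 1. Mmp13 stood at 0.953, 1.71, 0.223, 3.42 and 1.84 CPM in the combination and at 2.04, 0.382 and 0.416 CPM with anti-CD40. The ratio of summed counts to vehicle was 3.70 (2.58 to 5.45) in the combination and 2.04 (1.33 to 3.19) with anti-CD40, and 0.901 (0.476 to 1.64) without anti-CD40 1.

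Mmp14 (ENSMUSG00000000957.11, chr14:54431612-54445364), or MT1-MMP, is anchored in the plasma membrane, cuts collagen around the cell and activates the Mmp2 proenzyme. Like Mmp2 it was nearly level, at 55.2, 51.9, 58.1 and 71.4 CPM with regorafenib, against 57.3, 53.8, 68.2 and 64.4 CPM with vehicle. It stood at 66.1, 51.3 and 58.4 CPM with anti-PD1, at 59.6, 50.7, 53.8, 64.1 and 63.9 CPM in the combination and at 49.5, 49.4 and 63.6 CPM with anti-CD40. All groups overlapped, and no comparison of Mmp2 or Mmp14 reached an unadjusted p under 0.05.

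Timp1 (ENSMUSG00000001131.11, chrX:20870166-20874735), a secreted inhibitor that inflammation induces in many tissues, was low throughout. It stood at 2.62, 0.498 and 1.12 CPM with anti-PD1, against 0.278, 0.957, 0.586 and 0.311 CPM with vehicle. Anti-PD1 1 held 61.4% of its group's counts and the groups overlapped. The change of 1.43 ± 0.47 did not pass (edgeR unadjusted p = 0.00635, adjusted p = 0.311) and was 0.64 without anti-PD1 1. Timp1 stood at 0.573, 0.620, 0.845 and 1.11 CPM with regorafenib, at 0.866, 0.650, 0.891, 1.16 and 0.598 CPM in the combination and at 0.731, 0.874 and 0.457 CPM with anti-CD40. It lies inside Syn1 on the other strand, which had 153 counts over the libraries beside 319 for Timp1.

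Timp3 (ENSMUSG00000020044.13, chr10:86300372-86349506), an inhibitor that binds to the matrix and blocks ADAM sheddases as well as metalloproteinases, was the only one of the 10 genes called by edgeR, and it fell with regorafenib alone. It stood at 120, 92.8, 98.0 and 104.7 CPM with regorafenib, against 138.9, 146.6, 125.2 and 180.4 CPM with vehicle. All 4 regorafenib libraries lay below all 4 vehicle libraries. In that comparison 16.5% of all tested genes had groups that did not overlap, in either direction. Timp3 lies inside Syn3 on the other strand, which had 94 counts over the libraries beside 52080 for Timp3. The change was -0.51 ± 0.12 (edgeR adjusted p = 0.0249), which is 0.703 times the vehicle level. With 1 of the 10 genes called, the background was 6.32% of all tested genes called in that comparison, with 3.00% of all tested genes called lower. The call was lost without regorafenib 2, 3 or 4 (edgeR adjusted p = 0.0554, 0.0621 and 0.0674) and without vehicle 4 (adjusted p = 0.0968). It was also lost with the number in the column names as a block (-0.37, edgeR adjusted p = 0.179).

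With the combination Timp3 was higher than with regorafenib alone. It stood at 146.2, 149.7, 153.4, 144.2 and 132.7 CPM in the combination, all above the 4 regorafenib libraries, where 14.0% of tested genes had groups that did not overlap. It averaged 145.2 ± 7.82 CPM in the combination (SD, n = 5), against 103.9 ± 11.8 CPM with regorafenib (SD, n = 4). The change was 0.48 ± 0.12 (edgeR adjusted p = 0.0185), a fold of 1.40. That call, too, was 1 of 10 genes, with 10.5% of all tested genes called and 5.67% called higher, and both Timp3 calls rest on the same 4 regorafenib libraries. It was lost without regorafenib 2 (edgeR adjusted p = 0.0515) or regorafenib 4 (adjusted p = 0.0571).

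Timp3 stood at 171.3, 147.6 and 126.3 CPM with anti-PD1 and at 130.4, 165.5 and 112.2 CPM with anti-CD40, both overlapping vehicle. The interaction asks whether regorafenib did something else to a gene beside anti-PD1 than beside vehicle. For Timp3 it was 0.48 ± 0.18 (edgeR unadjusted p = 0.0156, adjusted p = 0.198), so the difference between the 2 effects of regorafenib did not pass.

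**Figure D2:**
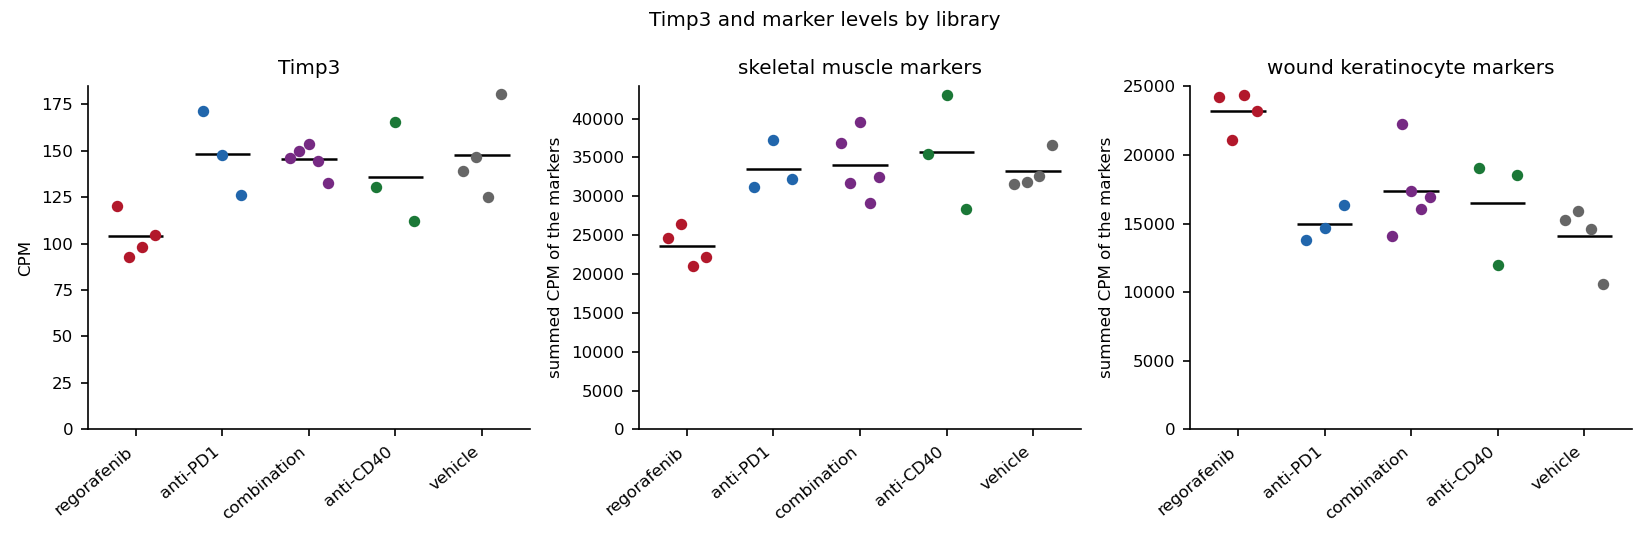
Timp3 in CPM and the summed CPM of 9 skeletal muscle markers and of 4 wound keratinocyte markers, for each library of the 5 groups; points are libraries and bars are group means, and each axis starts at 0. The 4 regorafenib libraries lie below all others in the muscle sum (at most 26479 CPM) and above all vehicle libraries in the wound keratin sum (at least 21121 CPM).

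The regorafenib libraries also differed from vehicle in markers of whole tissues. The 9 skeletal muscle markers summed to between 20974 and 26479 CPM with regorafenib, against 31619 and 36614 CPM with vehicle, and 4 of the 9 were called lower. The 4 wound keratinocyte markers (Krt6a, Krt6b, Krt16 and Krt17) summed to between 21121 and 24346 CPM with regorafenib, against 10617 and 15933 CPM with vehicle, and all 4 were called higher. The 9 fibroblast markers overlapped, at 614.9 to 743.8 CPM with regorafenib, against 733.0 to 930.8 CPM with vehicle. Of the 9, 1 was called lower, the small proteoglycan decorin (Dcn), at 438.4 ± 38.5 CPM with regorafenib (SD, n = 4), against 590.0 ± 69.7 CPM with vehicle (SD, n = 4), a change of -0.43 ± 0.13 (edgeR adjusted p = 0.05, rounded up). No muscle, wound keratinocyte or fibroblast marker was at 0 in any library. The 7 stomach markers, of which 6 were called higher, summed to between 80.4 and 552.5 CPM with regorafenib, against 0.397 and 286.6 CPM with vehicle. These sums include Tff2, the marker not called. The 6 called averaged between 1.26 (Atp4b) and 34.2 CPM (Pgc) with regorafenib, against 0 (Atp4b) to 0.499 CPM (Tff1) with vehicle. In the combination against regorafenib the same 6 were called lower. The part of the keratinocyte, fibroblast and stomach markers in the Timp3 level was not tested. In the combination the muscle sum was 29192 to 39621 CPM. With the muscle markers as a covariate, the Timp3 change was -0.32 ± 0.15 against vehicle with regorafenib (edgeR adjusted p = 0.372). In the combination against regorafenib it was 0.28 ± 0.15 (edgeR adjusted p = 0.546), so neither call held. The muscle sum of every regorafenib library lay below that of all other libraries, so this fit cannot tell muscle content and treatment apart.

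No gene of the 10 but Timp3 was called by edgeR in any comparison. Against vehicle, edgeR called 0 of the 10 genes with anti-PD1 (background 0%), 0 in the combination (background 0.0237%) and 0 with anti-CD40 (background 0%). At an unadjusted p under 0.05 these counts were 3, 0 and 1 genes, where 9.32%, 10.8% and 6.06% of all tested genes were under it, and DESeq2 and limma voom called 0 in each. In the combination against anti-PD1 alone, edgeR called 0 (background 0.00591%), with 1 gene at an unadjusted p under 0.05 (9.94% of all genes were), limma voom called 0, and DESeq2 called 0 of the 8 to which it gave an adjusted p. The libraries of the combination overlapped those of vehicle and those of anti-PD1 for all 10 genes, where 3.64% and 7.36% of all tested genes did not overlap. Regorafenib against vehicle had 5 genes at an unadjusted p under 0.05 (24.5% of all genes were), and the combination against regorafenib had 3 (28.1%).

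The median log2 change of the 10 genes was 0.34 with regorafenib, 0.69 with anti-PD1, 0.33 in the combination and 0.16 with anti-CD40, each against vehicle. The median of all tested genes lay between -0.01 and 0.01 in every comparison. These 4 comparisons share the vehicle libraries, in which Mmp9, Mmp10, Mmp12, Mmp13 and Timp1 had their lowest group means.

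**Figure D3:**
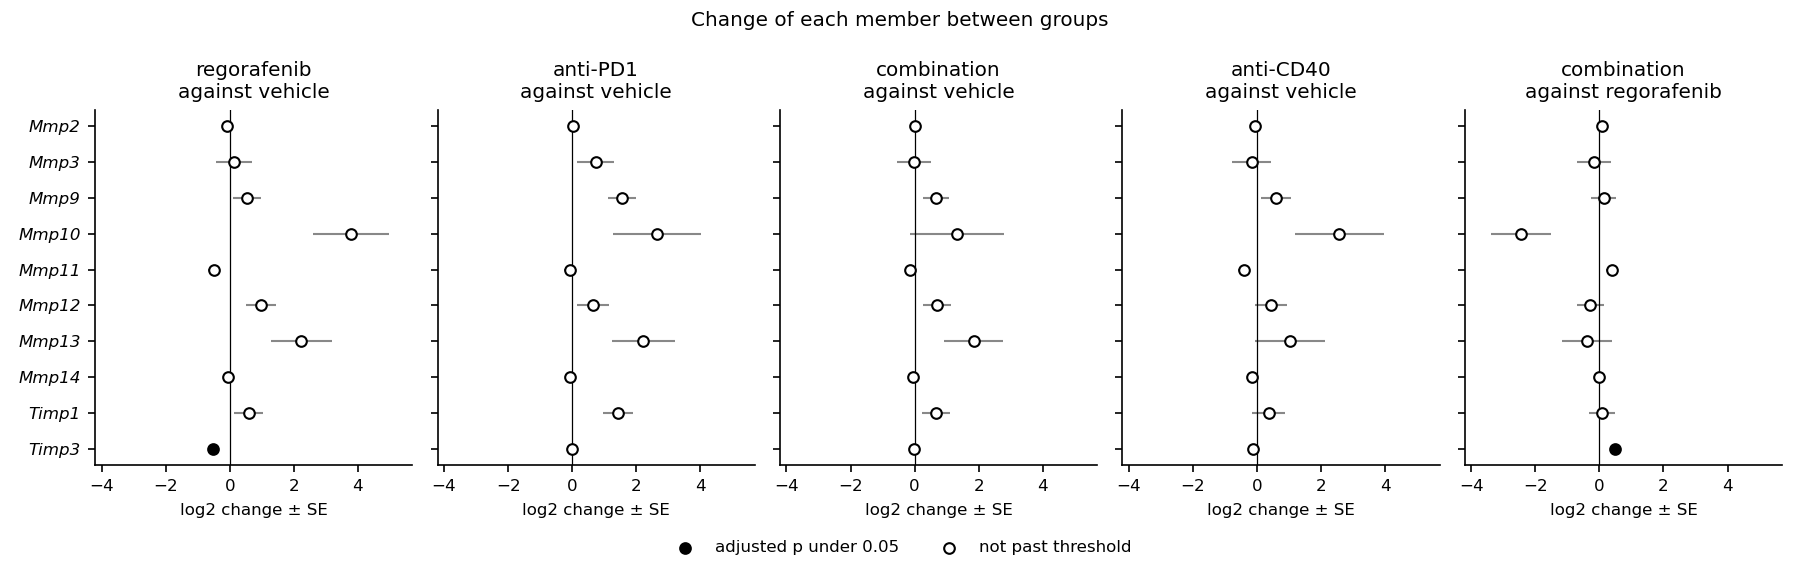
The log2 change ± SE of each of the 10 genes in 5 comparisons (horizontal axis), with filled points where the adjusted p was under 0.05. Timp3 is filled in the regorafenib against vehicle panel (-0.51) and in the combination against regorafenib panel (0.48), and the rarely counted Mmp10 and Mmp13 have the widest SEs.

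For the interaction of regorafenib and anti-PD1, edgeR and limma voom called 0 of the 10 genes (background 0.627% by edgeR), DESeq2 called 0 of the 8 to which it gave an adjusted p (all but Mmp10 and Timp1), and 4 genes had an unadjusted p under 0.05, as 15.8% of all tested genes did. Beside Timp3 these were Mmp9 at -1.43 ± 0.59 (edgeR adjusted p = 0.252), Mmp10 at -5.10 ± 1.66 (adjusted p = 0.143) and Timp1 at -1.35 ± 0.63 (adjusted p = 0.301). Without anti-PD1 1 the value was -2.48 for Mmp10 and -0.57 for Timp1. A negative value says that the combination lay below the level that the 2 single-drug changes add up to. A test for any difference among the 5 groups called 0 of the 10 genes by edgeR (background 4.49%), with Timp3 closest at an unadjusted p of 0.00355 (adjusted p = 0.0597) and 4 of the 10 at an unadjusted p under 0.05, as 25.9% of all tested genes were. By DESeq2, which gave Mmp10 and Timp1 no adjusted p, that test called 2 genes (Mmp9 and Timp3) and by limma voom 1 (Timp3). The 4.49% is the share by edgeR alone. The shares of all tested genes by DESeq2 and limma voom are not given here, so these counts have no background beside them.

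Mmp13 varied together with Mmp10 and Mmp3 from library to library. Over the 19 libraries, 45 pairs of genes were compared by log2 CPM with 100000 permutations. Mmp10 and Mmp13 had a Pearson r of 0.74 (permutation p = 0.0001, adjusted p = 0.0045) and a Spearman rho of 0.76 (adjusted p = 0.0045). Without the 2 libraries farthest from the median of Mmp10 (regorafenib 4 and anti-PD1 1) r was 0.69, and for deviations from the group means it was 0.77. In each pair the libraries left out are the farthest for the gene named first. Mmp10 had 1 to 72 counts a library, so this r rests on few reads. These adjusted values are over the 45 pairs.

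Mmp3 and Mmp13 had an r of 0.71 (permutation p = 0.00049, adjusted p = 0.0110) and a rho of 0.81 (adjusted p = 0.0045), with 0.54 without the farthest 2 libraries and 0.76 within groups. Mmp13 and Timp1 had an r of 0.66 (permutation p = 0.00175, adjusted p = 0.0262) but a rho of 0.55 (adjusted p = 0.105), with 0.45 without the farthest 2 libraries and 0.60 within groups. No other pair passed by r. By rho, 2 further pairs passed, Mmp9 with Mmp13 (rho 0.65, permutation adjusted p = 0.0492; r 0.60, adjusted p = 0.0641) and, in opposite directions, Mmp10 with Mmp11 (rho -0.64, permutation adjusted p = 0.0492; r -0.53, adjusted p = 0.0794). The 3 genes with the AP-1 and TATA matches printed above, Mmp3, Mmp10 and Mmp13, are those joined by the first 2 of these pairs. Their promoters were printed because of these correlations, and a link between the matches and the correlations was not tested. PEA3, also searched, was matched in Mmp3 and Mmp13 and not in Mmp10. Mmp3 with Mmp10 did not pass (r 0.56, permutation adjusted p = 0.0641). Timp1, which passed with Mmp13 by r, held neither match, and Mmp9 had no promoter to search. The libraries share tissue makeup and depth, and what made these genes vary together was not tested.

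**Figure D4:**
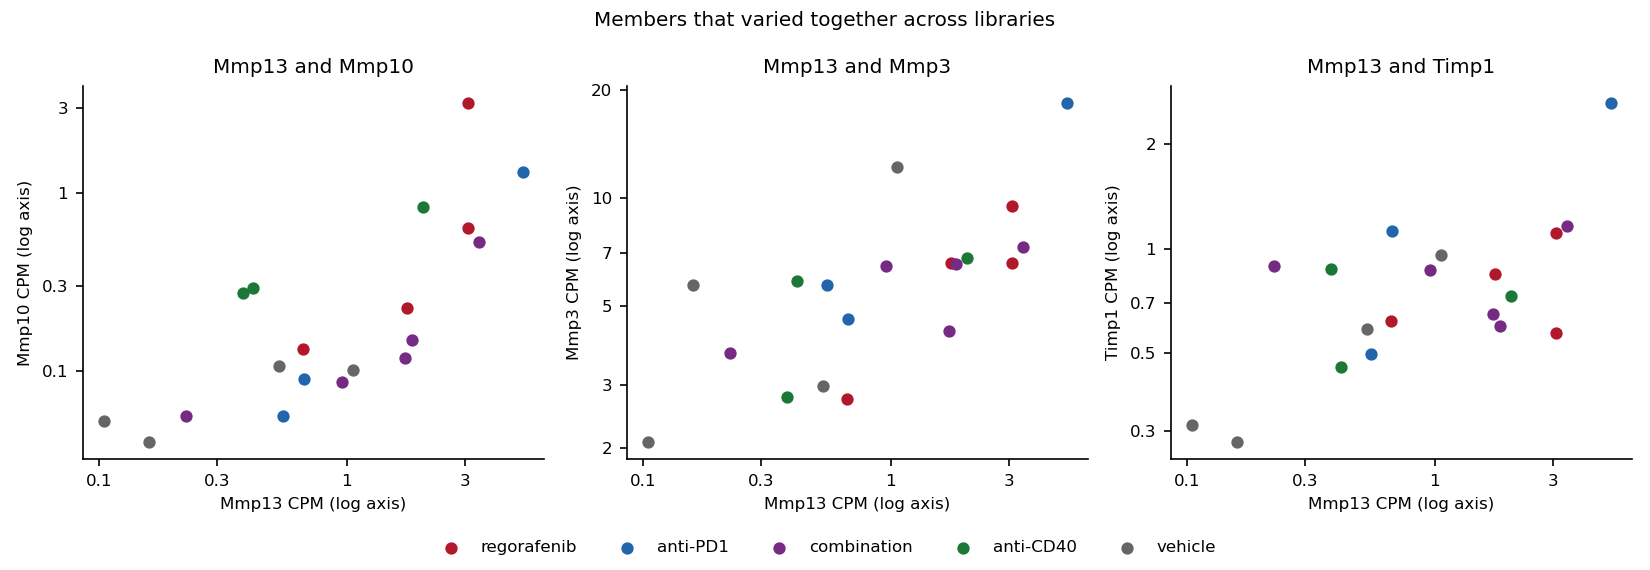
CPM of Mmp10, Mmp3 and Timp1 against Mmp13 (log axes), 1 point per library, coloured by group. The points run upward in all 3 panels (r of 0.74, 0.71 and 0.66 over 19 libraries), and the anti-PD1 library with the highest Mmp13 (5.15 CPM) is also the highest for Mmp3 and Timp1.

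Among all tested genes, those whose log2 CPM followed a member best over the 19 libraries were listed as a description, for the 5 most variable members that averaged at least 1 CPM, which leaves out Mmp10 and Timp1. Mmp13 was followed by Bnc1 (r = 0.91), a zinc finger protein of basal keratinocytes, Ctsc (0.84), the protease that activates granule serine proteases of leukocytes, and Ly75 (0.82), an endocytic receptor. Mmp3 was followed by Smim3 (0.82), by Cxcl1 (0.79), a chemokine for neutrophils, and by Tnfaip3 (0.79), a brake on NF-kappa-B signalling. Mmp9 was followed by the interferon-inducible Ifitm3 (0.77), Zc4h2 (0.77) and the acute-phase gene Serpina3n (0.75). Mmp12 was followed by the interferon-inducible Ifi202b (0.84), Tnfaip2 (0.82) and Lrrc59 (0.80), and Mmp11 by Dgke (0.84), Lhx8 (0.84) and Ccdc28b (0.83).

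Around the 10 genes, 6 lists of 64 related genes were read from the same fit, and 54 were tested. With regorafenib against vehicle 5 of the 54 were called, beside 6.32% of all tested genes, and 19 had an unadjusted p under 0.05, beside 24.5%. Of the 4 other inhibitors, 1 fell and 3 did not pass, with a list median of -0.28 beside 0.00 for all tested genes. The one that fell was Reck, a membrane-anchored inhibitor of metalloproteinases, at 11.1 ± 1.11 CPM with regorafenib (SD, n = 4), against 16.6 ± 2.63 CPM with vehicle (SD, n = 4), a change of -0.58 ± 0.16 (edgeR adjusted p = 0.0439).

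Of the 8 tested genes of the plasminogen and proprotein activation list, 1 rose and 7 did not pass (list median 0.31). Plau, the urokinase that turns plasminogen into plasmin, averaged 65.2 ± 8.70 CPM with regorafenib (SD, n = 4), against 36.4 ± 7.72 CPM with vehicle (SD, n = 4), a rise of 0.84 ± 0.17 (edgeR adjusted p = 0.0143). Of the 14 adamalysins, the ADAM and ADAMTS relatives of the metalloproteinases, 2 rose, 1 fell and the list median was 0.04. Adam8, a protease of leukocytes and tumour cells, rose by 0.78 ± 0.16 (edgeR adjusted p = 0.0106) and Adam10, the sheddase of Notch and E-cadherin, by 0.29 ± 0.07 (edgeR adjusted p = 0.0273). Adamts14, which trims procollagen, averaged 0.923 ± 0.242 CPM with regorafenib, against 1.81 ± 0.385 CPM with vehicle, and fell by 0.95 on the log2 scale (edgeR adjusted p = 0.0286). No gene was called among 8 tested other metalloproteinases (list median -0.20), 10 inducers of metalloproteinase transcription (0.25) or 10 matrix substrates (-0.10).

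In the combination against regorafenib alone, 8 of the 54 were called, beside 10.5% of all tested genes, and 25 had an unadjusted p under 0.05, beside 28.1%. Reck was higher by 0.55 ± 0.16 (edgeR adjusted p = 0.0324) and Adamts14 by 0.77 ± 0.24 (edgeR adjusted p = 0.0434), in a comparison that shares the regorafenib libraries with the one above. Mmp19, a secreted metalloproteinase, averaged 5.76 ± 0.563 CPM in the combination (SD, n = 5), against 4.04 ± 0.264 CPM with regorafenib (SD, n = 4; change 0.51 ± 0.13, edgeR adjusted p = 0.0197). Among the adamalysins Adam19 was also higher, by 0.47 ± 0.11 (edgeR adjusted p = 0.0163). List medians were 0.25 for the other metalloproteinases, 0.60 for the other inhibitors, -0.05 for plasminogen activation and 0.08 for the adamalysins.

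Of the 10 tested inducers, 2 were lower in the combination than with regorafenib alone and none was higher (list median -0.29). Both are subunits of AP-1. Fosl1 averaged 4.06 ± 0.881 CPM in the combination, against 6.71 ± 1.87 CPM with regorafenib (change -0.72 ± 0.21, edgeR adjusted p = 0.0358), and Junb 82.6 ± 11.6 CPM, against 107.8 ± 6.58 CPM (change -0.38 ± 0.12, edgeR adjusted p = 0.0438). Of the 10 substrates, 2 were higher (list median 0.34). Elastin (Eln) averaged 60.7 ± 12.5 CPM in the combination, against 35.9 ± 7.77 CPM with regorafenib (edgeR adjusted p = 0.0127), and the proteoglycan versican (Vcan) 8.44 ± 1.35 CPM, against 4.79 ± 0.892 CPM (edgeR adjusted p = 0.00828).

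In the other 4 comparisons of 2 groups and in the interaction edgeR called 0 of the 54 genes. Against vehicle, those at an unadjusted p under 0.05 were 13 with anti-PD1 (beside 9.32% of all tested genes), 14 in the combination (10.8%) and 3 with anti-CD40 (6.06%). They were 8 in the combination against anti-PD1 (9.94%) and 16 for the interaction (15.8%). The test for any difference among the 5 groups called 9 of the 54, beside 4.49% of all tested genes. They were 4 of the 10 inducers (Jun, Fosb, Fosl1 and Fos), 2 adamalysins (Adam8 and Adamts1), 2 substrates (Eln and Vcan) and Mmp19. Fos, ninth by p, was named after its value was seen. Jun averaged 83.9 ± 7.33 CPM with regorafenib, 99.8 ± 7.58 CPM with anti-PD1, 73.2 ± 5.87 CPM in the combination and 75.4 ± 7.05 CPM with anti-CD40, against 92.5 ± 10.0 CPM with vehicle (edgeR adjusted p = 0.0263).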

How the data were processed

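The deposited table held whole-number counts per gene for 19 libraries, not normalized by the authors. Per the labels' protocols, libraries were made with a stranded kit for polyadenylated RNA. The submitters' processing notes name STAR 2.7.2a, cutadapt 2.4 and the build GRCm38. How reads were counted, and with which strand setting, is not given in the sources used, which leaves overlapping genes uncertain. Columns were matched to samples by the names in their descriptions, and groups were taken from the sample titles. Of 55487 IDs, 55141 matched GENCODE M21 without the version and 346 did not. Genes with low counts were removed with filterByExpr by group, leaving 16909 genes with 99.92% of counts. edgeR 4.0.16 in R 4.3.3 fitted 1 mean per group over all 19 libraries with TMM scaling (factors 0.954 to 1.04) and robust quasi-likelihood estimation (14 residual degrees of freedom, common dispersion 0.0345). Tests are two-sided. CPM were computed here from the deposited counts and TMM-scaled library sizes, with a prior count of 2 before taking log2. The fit was tested on simulated data.

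The members and the gene lists were chosen with earlier results of these data known. All 10 members are named, with list genes that passed (at most 8 a comparison, by smallest p) and, for the 5 members with the largest SD of log2 CPM among those averaging at least 1 CPM, the 3 genes of highest r. Log2 changes are printed for the 17 that had an unadjusted p under 0.05; the other 53 ran between -2.61 and 2.66 and none was called under any alternative. As alternatives, each library was left out in turn, muscle or salivary gland markers entered as a covariate, replicate numbers entered as a block, the fit was limited to the groups compared, low counts were kept, RLE replaced TMM, and limma voom 3.58.1 (sample weights) and DESeq2 1.42.0 replaced edgeR. Estimation without the robust option was chosen after seeing the data.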

Additional observations from a re-analysis of the deposited data

Results flagged for a closer look

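In the regorafenib group Mmp10 stood at 3.19 CPM in regorafenib 4, far above the other 3 libraries (0.133 to 0.631 CPM), with a gap that took 0.837 of the group's range against a critical value of 0.829. In the combination Mmp10 stood at 0.529 CPM in combination 4, beside at most 0.149 CPM in the other 4 libraries (0.802 of the range against 0.710). These were 2 of 30 groups tested in this way, and groups of 3 libraries were not tested. For normally distributed values chance marks about 1 in 20 groups. The CPM were not transformed, and low counts such as those of Mmp10 need not follow that rate. Both values rest on few reads, 72 counts in regorafenib 4 and 11 in combination 4.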

How the results depend on the processing

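The 2 Timp3 calls were recomputed under 29 alternatives. The share of all tested genes called under each alternative is not given here. The change with regorafenib against vehicle lay between -0.58 and -0.32 and failed the threshold under 6 of them; the change in the combination against regorafenib lay between 0.28 and 0.56 and failed under 3. The number of the 10 genes called with regorafenib against vehicle, 1 in the report, was 0 with the muscle covariate and between 0 and 2 when leaving out 1 library (0 without regorafenib 3, regorafenib 4 or vehicle 4, and 2 without anti-PD1 1, adding Mmp10, or without vehicle 2, adding Mmp11). In the combination against regorafenib, 1 in the report, it was 0 with the muscle covariate and between 0 and 1 when leaving out 1 library (0 without regorafenib 2 or regorafenib 4). For any difference among the 5 groups, 0 in the report, it was 2 by DESeq2, 1 by limma voom and between 0 and 1 when leaving out 1 library (1 without anti-PD1 3, anti-CD40 2 or anti-CD40 3); fitting only the groups compared gives no separate value there. DESeq2 gave no adjusted p to Mmp10 with regorafenib against vehicle, nor to Mmp10 and Timp1 in the combination against regorafenib or against anti-PD1, in the interaction and for any difference. The 17 printed changes kept their direction under each alternative that gave them a value, which for 2 of them (Mmp10 with regorafenib against vehicle and in the combination against regorafenib) were 28 of the 29, since fitting only the groups compared filtered Mmp10 out, while 34 of the other 53 changed sign in at least 1. Several of the 17 printed changes shrank with the muscle covariate. With regorafenib against vehicle it left Mmp10 at 2.16, Mmp11 at -0.22 and Mmp13 at 1.13 (edgeR adjusted p = 0.601, 0.662 and 0.749). Mmp12, at 1.11, did not shrink. In the combination against regorafenib it left Mmp10 at -0.78 and Mmp11 at 0.06 (edgeR adjusted p = 0.91 and 0.955). As for Timp3, that fit cannot tell muscle content and treatment apart. The pairs of genes that passed by r numbered 3 with a prior count of 0.5, 3 with RLE scaling and 4 for deviations from group means. The fit without robust estimation made the same calls among the 10 genes.

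It is not known whether the replicate numbers pair the samples. By the number in the titles, same-numbered libraries of different groups had a median correlation of deviations of 0.12, with 17 of 33 over 0.1. Differently numbered libraries had a median of -0.08, with 48 of 110 over 0.1. By the number in the column names the medians were 0.09 (13 of 27 over 0.1) and -0.04 (52 of 116). Single correlations ran from -0.86 to 0.81, so these medians do not decide it. With the number in the titles as a replicate block, the genes called were 2 with regorafenib against vehicle (Mmp10, edgeR adjusted p = 0.0247, and Timp3), 2 in the combination against regorafenib (Mmp10, adjusted p = 0.0467, and Timp3) and 1 for the interaction (Mmp10, adjusted p = 0.0458). With the number in the column names as a replicate block, 0 were called with regorafenib against vehicle (Timp3 -0.37, edgeR adjusted p = 0.179). The share of all tested genes called with either block is not given, so these counts have no background beside them. The causes were not tested.

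Mmp10 (1 to 72 counts a library) and Mmp13 (2 to 106) are limited by depth, and their changes move with single libraries.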

Other observations

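Beside the 10 genes, Timp2, the inhibitor that Mmp14 uses to activate Mmp2, averaged 28.3 CPM per kb of exon over the 19 libraries. The membrane-type Mmp15 averaged 5.30 CPM per kb, the epidermal Mmp28 3.50 CPM per kb, Reck 3.08 CPM per kb, Timp4 2.37 CPM per kb and Mmp19 1.42 CPM per kb. Several enzymes were hardly counted. Mmp7 (matrilysin) had 15 counts over all libraries and was at 0 in 10 of them, and Mmp8, the neutrophil collagenase, had 68 counts and was at 0 in 1. Mmp1a had 0 counts in all 19 libraries, which allows up to 3 counts, or between 0.12 and 0.179 CPM, in a library.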
